A study of Caenorhabditis elegans with 12 samples.

Results

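The genes described here are the chaperones, proteasome subunits and ubiquitin enzymes of the nematode Caenorhabditis elegans. They were chosen by a rule on the symbol alone, with earlier results of these data known. A protein-coding gene was taken when its symbol began with pas, pbs, rpn, rpt, cct, hsp, dnj, pfd, sti, ubc, uba, ubq, ubl or usp followed by a hyphen. In the annotation of the WBcel235 genome 136 of 19985 protein-coding genes met this rule, and 49 of them were among the 5272 genes of the 12 count files, of which 3363 were protein-coding. The 49 genes comprised 25 chaperones, 12 proteasome subunits and 12 ubiquitin enzymes or ubiquitin genes. The rest of the genes that met the rule were not analysed here.

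The study asked how the transcriptome of worms exposed to FW1256, a hydrogen sulfide donor, compares with that of a caloric restriction model. The groups were FW1256-exposed wild type (WT, Bristol N2) given 500 µM FW1256 from L1 larvae onwards, unexposed eat-2 mutants (strain DA1116) and unexposed WT, with 4 libraries each. The eat-2 mutation slows pharyngeal pumping and so lowers food intake, which makes it a genetic and lifelong form of restriction rather than a diet. Every library came from the whole bodies of about 1000 pooled nematodes at day 6. The study reports that exposure and the mutation each delayed development and the peak of egg laying, and that the mutants laid fewer eggs. Groups of the same age may therefore differ in reproductive stage, and the part of this in the results was not tested. Per the study's methods, L1 larvae were first kept in liquid medium and later moved to agar, both with Escherichia coli OP50-1. The label for treatment names FW1256 on every sample, whereas the titles and the design give it to 4 of the 12, and the groups here follow the titles.

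Newly made and damaged proteins are held in a soluble state and folded by chaperones. HSP70 proteins bind exposed segments and release them with the help of J-domain partners and nucleotide exchange factors, chaperonins enclose a whole protein in a barrel, and HSP90 finishes the folding of signalling proteins. Proteins to be removed are tagged with ubiquitin by an E1, E2 and E3 cascade and are then unfolded by the ATPases of the 19S regulatory particle and cut inside the 20S core of the proteasome. In worms these genes have been studied for their part in stress resistance, development and ageing.

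The libraries held between 14769332 and 19199982 estimated counts over the genes of the files, with similar ranges in the 3 groups. The 49 genes took 4.96% to 5.05% of the counts in FW1256-exposed WT, 4.27% to 4.48% in eat-2 mutants and 4.81% to 5.05% in unexposed WT. Markers of oocytes, germline, intestine, muscle, pharynx and neurons were present in every group, as a whole-body sample would hold, and the 3 hypodermis markers in the files summed to at most 44.2 CPM, the estimated counts of a gene scaled to a common library size. The labels call the libraries replicates without saying that they came from separate cultures, so the p-values measure the spread between these samples. In whole-body RNA, fewer cells of a type and less RNA per cell cannot be told apart.

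Levels are given as CPM over the genes of the files, with edgeR's TMM factors, and a gene was called higher or lower at an adjusted p under 0.05 over all genes tested. All 49 genes passed the filter on low counts in each comparison. Per kilobase of the longest transcript, the most abundant in unexposed WT were hsp-90 at 2981 CPM, hsp-1 at 2890 CPM, ubl-1 at 2869 CPM and ubq-1 at 1735 CPM. The 12 proteasome subunits lay between 281 CPM per kilobase for rpn-2 and 1013 for pas-3. The lowest was ubc-17 at 1.55 CPM per kilobase.

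The chaperones in the files were 5 of 8 CCT subunits, 4 of 6 HSP70 and HSP110 genes, 10 of 29 J-domain genes, 2 of 13 small heat shock genes, 1 of 6 prefoldin subunits and the remaining hsp genes hsp-60, hsp-75 and hsp-90. The proteasome was covered by 4 of 7 alpha subunits, 2 of 6 ATPases and 6 of 13 non-ATPase subunits, with 0 of 7 beta subunits. Absence from the files does not show that a gene was not expressed. The ubiquitin genes were 2 of 3 E1 enzymes, 6 of 21 E2 enzymes, 2 of 9 usp deubiquitinases, ubl-1 and ubq-1.

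In FW1256-exposed WT relative to unexposed WT, most of these genes were modestly higher. The largest rises were those of the small heat shock gene hsp-12.2, the mitochondrial chaperonin hsp-60, the J-domain gene dnj-13 and the ubiquitin-like fusion gene ubl-1. Of the 49 genes, 27 (55.1%) were higher, 4 (8.16%) were lower and 18 were not called, with a median log2 fold change of 0.13. Of all 3616 genes tested, 25.5% were called higher and 24.8% lower, with a median of -0.003, and of the protein-coding genes tested 27.2% were higher and 23.4% lower. These genes are abundant, and among the 1610 protein-coding genes at 100 CPM or more 36.5% were higher and 18.2% lower, with a median of 0.06.

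By role, 14 of 25 chaperones, 7 of 12 proteasome subunits and 6 of 12 ubiquitin genes were higher, and 1, 0 and 3 of them were lower. The 4 genes that fell were dnj-16, ubc-19, ubc-25 and the polyubiquitin gene ubq-1. CPM did not overlap between the groups for 25 genes that were higher and 2 that were lower, where 25.5% and 22.5% of all genes tested showed the same. This comparison depended on the scaling. With library size alone, which moved the median of all genes to -0.06, 19 genes were higher and 5 lower, and the proteasome subunits called higher numbered 3 in place of 7.

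**Figure D1:**
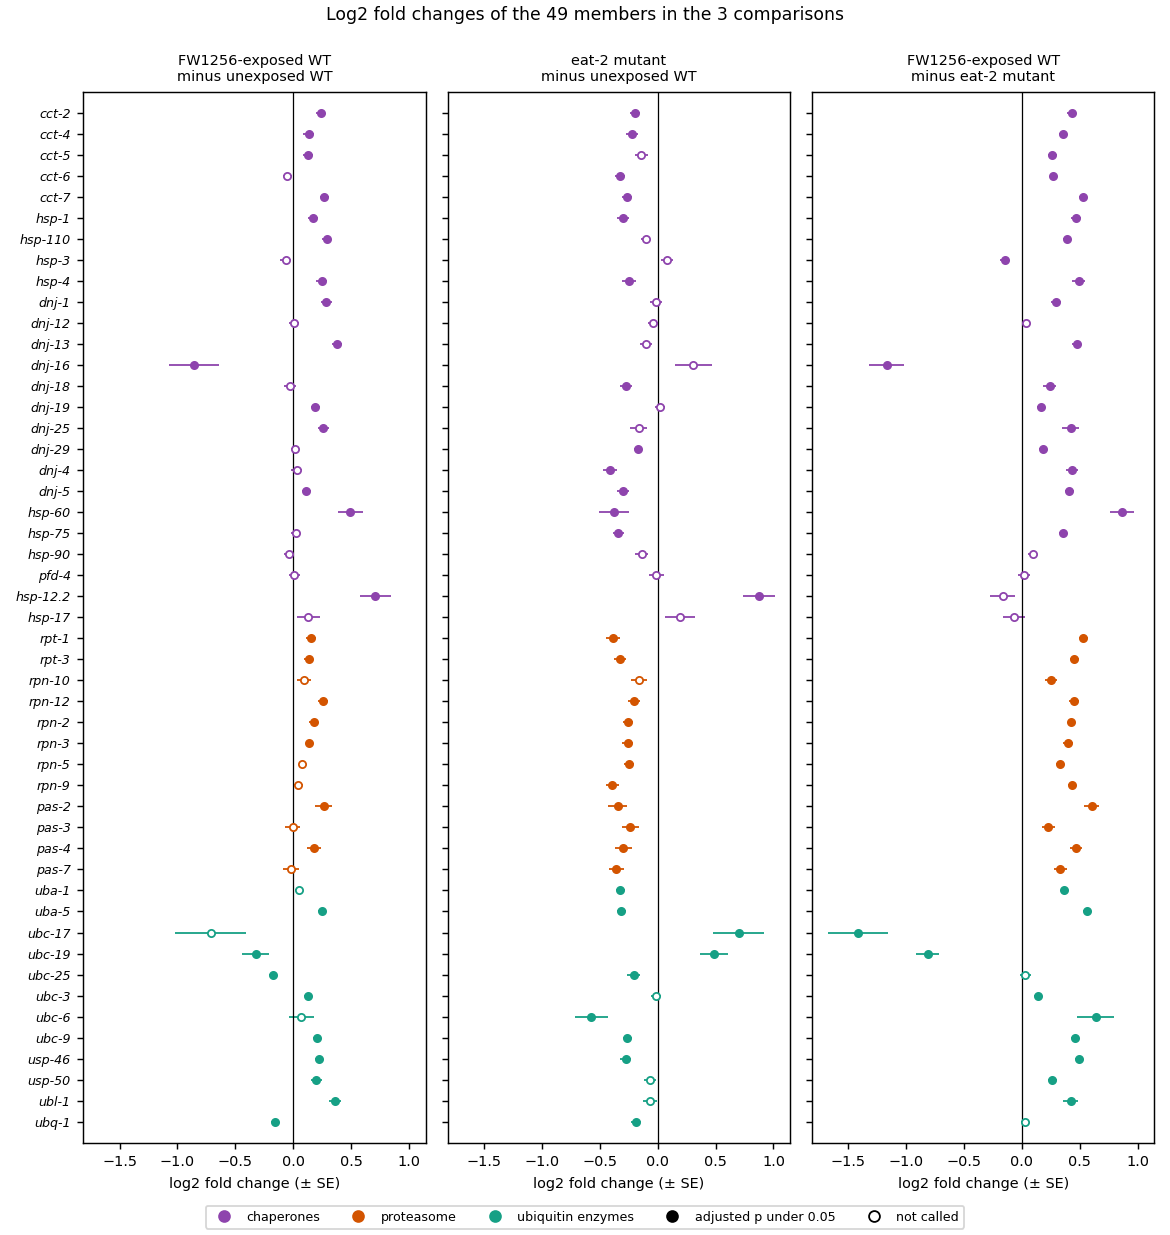
Log2 fold change (horizontal axis) of each of the 49 genes (rows, in the order chaperones, proteasome, ubiquitin enzymes) in 3 comparisons, with bars of 1 SE from edgeR's quasi-likelihood test; filled points had an adjusted p under 0.05. In the left panel 27 points are filled to the right of 0 and 4 to the left, in the middle panel 3 and 30, and in the right panel 38 and 4.

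In eat-2 mutants relative to unexposed WT, most of the genes were lower, with the largest share lower among the proteasome subunits. Of the 49 genes, 30 (61.2%) were lower, 3 (6.12%) were higher and 16 were not called, with a median log2 fold change of -0.22. Of all 3786 genes tested 22.4% were lower and 21.8% higher, with a median of 0.02, and of the protein-coding genes tested 26.4% were lower and 21.4% higher. Among the 1610 protein-coding genes at 100 CPM or more 45.0% were lower and 13.0% higher, with a median of -0.12.

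The lower genes were 12 of 25 chaperones, 11 of 12 proteasome subunits and 7 of 12 ubiquitin genes. For chaperones this is 48.0%, close to the 45.0% of protein-coding genes at 100 CPM or more that were lower. The 3 genes that rose were hsp-12.2, ubc-17 and ubc-19. CPM did not overlap between the groups for 29 lower and 3 higher genes, against 22.0% and 20.9% of all genes tested. Both comparisons with WT use the same 4 WT libraries, so their values are given side by side below and the difference between exposure and mutation was tested directly.

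In that direct test, FW1256-exposed WT stood above eat-2 mutants for 38 of the 49 genes (77.6%) and below for 4 (8.16%), with a median log2 fold change of 0.36. The background was 33.1% higher and 36.2% lower of 3715 genes, with a median of -0.05, and of the protein-coding genes tested it was 37.3% higher and 32.8% lower. Among protein-coding genes at 100 CPM or more it was 58.8% higher and 19.5% lower, with a median of 0.19. All 12 proteasome subunits, 18 chaperones and 8 ubiquitin genes were higher, and the 4 lower genes were hsp-3, dnj-16, ubc-17 and ubc-19. CPM did not overlap for 39 higher and 4 lower genes, where 32.0% and 32.9% of all genes tested did not.

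**Figure D2:**
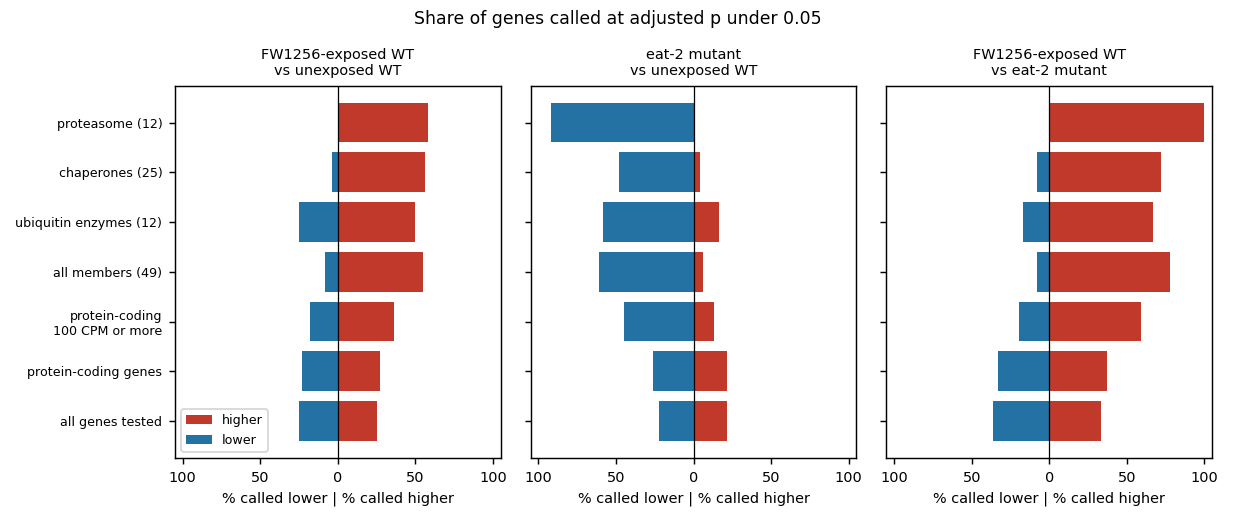
Percent of genes called higher (red, right of 0) and lower (blue, left of 0) at an adjusted p under 0.05 in 3 comparisons, for the subgroups, all 49 genes and 3 sets of tested genes. For the proteasome the bars reach 58.3% higher in FW1256-exposed WT against unexposed WT, 91.7% lower in eat-2 mutants against unexposed WT and 100% higher in FW1256-exposed WT against eat-2 mutants.

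Several marker lists of single tissues also differed between the groups, and the share of protein-coding genes called is the background for their counts. It was 27.2% higher and 23.4% lower after exposure, and 36.5% and 18.2% among genes at 100 CPM or more. For the mutants it was 21.4% higher and 26.4% lower, and 13.0% and 45.0% among genes at 100 CPM or more. The summed CPM of 10 oocyte and early embryo markers was 16786 to 17527 in FW1256-exposed WT, 11266 to 12216 in eat-2 mutants and 15112 to 16954 in unexposed WT. Of the 10, 3 were higher and 0 lower in FW1256-exposed WT against WT, and 0 were higher and 10 lower in eat-2 mutants against WT. The 6 germline markers summed to 5706 to 5941 CPM in FW1256-exposed WT, 3911 to 4144 CPM in eat-2 mutants and 4714 to 5077 CPM in unexposed WT, with 2 higher and 0 lower after exposure, and 0 higher and 5 lower in the mutants. After exposure, the 3 of 10 and 2 of 6 called higher are near the background shares. The oocyte sums of exposed and unexposed WT overlapped.

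The 8 body wall muscle markers ran another way and summed to 4130 to 4651 CPM in FW1256-exposed WT, 2856 to 3688 CPM in eat-2 mutants and 1862 to 2263 CPM in unexposed WT. Of these, 7 were higher after exposure and 8 in the mutants. Sperm markers (8 in the files) summed to 332 to 373 CPM in FW1256-exposed WT, 202 to 226 CPM in eat-2 mutants and 252 to 305 CPM in unexposed WT, with 1 higher and 0 lower after exposure, and 0 higher and 2 lower in the mutants. The 2 lower of 8 are near the 26.4% of protein-coding genes tested that were lower in the mutants. The median log2 fold change of the sperm markers was nevertheless -1.01 in the mutants against WT, and 0.23 after exposure. Between FW1256-exposed WT and eat-2 mutants it was 1.28, with 6 higher and 0 lower, where 37.3% of protein-coding genes tested were higher.

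Intestine and neuron markers were higher in the mutants, against the direction of most of the 49 genes. The 4 intestine markers summed to 27316 to 31679 CPM in FW1256-exposed WT, 33792 to 38331 CPM in eat-2 mutants and 27430 to 30298 CPM in unexposed WT, with 3 higher after exposure and 4 in the mutants. The 4 neuron markers in the files summed to 150 to 169 CPM in FW1256-exposed WT, 181 to 200 CPM in eat-2 mutants and 126 to 132 CPM in unexposed WT. Of the 3 that were tested, 2 were higher after exposure and 3 in the mutants. The 4 pharynx markers summed to 163 to 226 CPM, 195 to 234 CPM and 103 to 158 CPM in the same groups, with 2 higher in each comparison with WT. Their median log2 fold change was -0.44 after exposure and 0.38 in the mutants, so the pharynx markers not called after exposure lay below 0. No intestine, neuron or pharynx marker was called lower in either comparison with WT. The part of these cells in the results for chaperones, proteasome and ubiquitin genes was not tested.

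The cytosolic chaperonin CCT, which folds actin and tubulin among other proteins, is a ring of related subunits that work as 1 machine. In FW1256-exposed WT 4 of its 5 subunits in the files were higher than in unexposed WT and cct-6 was not called (log2 fold change -0.05 ± 0.04, SE). In eat-2 mutants 4 were lower and cct-5 was not called (log2 fold change -0.14 ± 0.06, edgeR, adjusted p = 0.0641). It passed the threshold with DESeq2 (adjusted p = 0.0330), in 1 edgeR fit over the 3 groups (adjusted p = 0.0316), without mutant replicate 2 (edgeR, adjusted p = 0.0318) and without WT replicate 4 (edgeR, adjusted p = 0.0325). All 5 were higher in FW1256-exposed WT than in eat-2 mutants, by 0.26 to 0.53 on the log2 scale. Among protein-coding genes at 100 CPM or more, 36.5% were higher after exposure and 45.0% were lower in the mutants. In the direct test 58.8% of them were higher in FW1256-exposed WT.

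The subunit cct-7 (chromosome V, 1872246 to 1875505, plus strand) had 1104, 1150, 1083 and 1056 CPM in FW1256-exposed WT, 737, 767, 740 and 767 CPM in eat-2 mutants and 856, 910, 940 and 912 CPM in unexposed WT. The 3 groups did not overlap, with exposed animals at the top and mutants at the bottom. With Benjamini-Hochberg adjustment, edgeR's quasi-likelihood test gave a log2 fold change of 0.53 ± 0.04 between FW1256-exposed WT and eat-2 mutants (adjusted p = 1.51e-06). Its exons overlap those of zig-11 on the other strand, and nothing says that reads were counted by strand. The same limit holds for dnj-5, dnj-12, hsp-12.2, hsp-17, hsp-90, rpn-10, pas-7, uba-1, uba-5, ubc-19, ubq-1 and usp-46, and ubc-9 overlaps a gene on its own strand.

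The subunit cct-6 (chromosome III, 5853530 to 5855687, minus strand) had 940, 951, 939 and 907 CPM in FW1256-exposed WT, 757, 779, 748 and 782 CPM in eat-2 mutants and 917, 944, 1018 and 966 CPM in unexposed WT. Exposed and unexposed WT overlapped and the mutants lay below both. The log2 fold change in eat-2 mutants against WT was -0.33 ± 0.04 (edgeR, adjusted p = 0.000525). The rises of cct-4 and cct-5 after exposure were the least secure of the family. They lost their call without 7 of the 8 libraries in turn for cct-4 (edgeR, adjusted p 0.0501 to 0.0983) and without 6 of the 8 for cct-5 (edgeR, adjusted p 0.0602 to 0.110).

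The HSP70 family holds the constitutive cytosolic hsp-1, the endoplasmic reticulum genes hsp-3 and hsp-4, which are the worm counterparts of BiP, and hsp-110, which works as a nucleotide exchange factor for HSP70. The gene hsp-1 (chromosome IV, 17278959 to 17281330, plus strand) had 7006, 7054, 6519 and 6547 CPM in FW1256-exposed WT, 4856, 5068, 4629 and 4894 CPM in eat-2 mutants and 5692, 6121, 6282 and 5865 CPM in unexposed WT. The exposed libraries lay above and the mutant libraries below all 4 unexposed WT libraries. Its log2 fold change was 0.17 ± 0.04 in FW1256-exposed WT against WT (edgeR, adjusted p = 0.00989) and -0.30 ± 0.05 in eat-2 mutants against WT (edgeR, adjusted p = 0.00143). With library size alone the rise after exposure shrank to 0.11 and kept its call.

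The exchange factor hsp-110 (chromosome III, 8443910 to 8446909, minus strand) had 1603, 1565, 1555 and 1524 CPM in FW1256-exposed WT, 1176, 1162, 1170 and 1222 CPM in eat-2 mutants and 1319, 1262, 1221 and 1277 CPM in unexposed WT. All exposed libraries were above the rest, while the highest mutant library (1222 CPM) just overlapped the lowest unexposed WT library (1221 CPM). Exposure gave a log2 fold change of 0.29 ± 0.04 (edgeR, adjusted p = 0.000246), and in the mutants it was -0.10 ± 0.04 (edgeR, adjusted p = 0.0643). The difference in the mutants passed the threshold with DESeq2, with RLE size factors and in 1 fit over the 3 groups. It also did so without WT replicate 3 (edgeR, adjusted p = 0.0479). The proteasome gene rpn-3 starts 443 bases away on the opposite strand, so the genes lie head to head.

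The BiP genes did not move alike. The level of hsp-4 (chromosome II, 7350112 to 7352645, minus strand) was 603, 591, 650 and 601 CPM in FW1256-exposed WT, 382, 444, 454 and 444 CPM in eat-2 mutants and 484, 489, 547 and 527 CPM in unexposed WT. For hsp-3 (chromosome X, 6089028 to 6092124, minus strand) it was 2005, 1920, 2052 and 2049 CPM in FW1256-exposed WT, 2297, 2194, 2159 and 2153 CPM in eat-2 mutants and 2190, 2003, 1981 and 2154 CPM in unexposed WT. The 3 groups were apart for hsp-4, whereas for hsp-3 unexposed WT overlapped both of the others.

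Between FW1256-exposed WT and eat-2 mutants hsp-4 was higher, by 0.49 ± 0.06 on the log2 scale (edgeR, adjusted p = 4.38e-05), and hsp-3 was lower, at -0.15 ± 0.04 (edgeR, adjusted p = 0.00714). Against WT, hsp-4 was 0.24 ± 0.05 after exposure and -0.25 ± 0.06 in the mutants, both called, and hsp-3 was called in neither. These genes are close paralogs, so reads shared between them were divided by the authors' quantification and the split is uncertain.

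For 6 of the 49 genes the authors' own pooled means raise a doubt about completeness. The authors' mean of normalized counts for hsp-4 in the FW1256 table was 55.8% of that in the eat-2 table, and the corresponding share was 23.4% for ubc-6, 33.3% for dnj-16, 37.6% for hsp-60, 74.7% for dnj-1 and 89.8% for uba-1. For the other 43 genes it was between 93.5% and 103%. The cause was not tested, and the values of these 6 genes are to be read with that limit.

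The J-domain genes did not move as 1 group. After FW1256 exposure 5 of 10 were higher (dnj-1, dnj-5, dnj-13, dnj-19 and dnj-25), 1 was lower (dnj-16) and 4 were not called. Beside these counts, 36.5% of protein-coding genes at 100 CPM or more were higher after exposure and 18.2% lower. In eat-2 mutants 4 were lower (dnj-4, dnj-5, dnj-18 and dnj-29) and 6 were not called. The 4 lower genes of 10 are 40.0%, close to the 45.0% of protein-coding genes at 100 CPM or more that were lower in the mutants. Without mutant replicate 2, dnj-25 was called lower as well (edgeR, adjusted p = 0.0200). The rise of dnj-5 after exposure was small (log2 fold change 0.11 ± 0.04) and lost its call without 7 of the 8 libraries in turn (edgeR, adjusted p 0.0615 to 0.109). Its call was also lost with RLE size factors, library size alone, a replicate block, no low-count filter and protein-coding genes only.

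The class B J-domain gene dnj-13, an HSP70 partner in the cytosol, lies on chromosome II (11545701 to 11547360, plus strand). It had 989, 942, 966 and 975 CPM in FW1256-exposed WT, 721, 657, 669 and 717 CPM in eat-2 mutants and 761, 732, 690 and 772 CPM in unexposed WT. The exposed libraries were all above the rest, with mutants and unexposed WT overlapping. Its log2 fold change was 0.38 ± 0.05 after exposure (edgeR, adjusted p = 0.000155) and -0.10 ± 0.05 in the mutants (edgeR, adjusted p = 0.146).

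The gene dnj-4 (chromosome I, 5282083 to 5283944, minus strand) had the reverse distribution, with 97.6, 94.6, 99.0 and 97.1 CPM in FW1256-exposed WT, 69.6, 72.5, 66.7 and 75.2 CPM in eat-2 mutants and 94.4, 91.8, 97.2 and 94.3 CPM in unexposed WT. Only the mutants stood apart, and exposed and unexposed WT overlapped. In the mutants the log2 fold change was -0.41 ± 0.06 (edgeR, adjusted p = 0.00062), the largest fall of a chaperone among these 25.

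The level of dnj-16 (chromosome III, 4191141 to 4193429, plus strand) was 34.1, 35.6, 56.4 and 35.8 CPM in FW1256-exposed WT, 91.9, 84.4, 91.4 and 92.9 CPM in eat-2 mutants and 95.8, 50.7, 68.5 and 75.9 CPM in unexposed WT. Unexposed WT was widely spread and overlapped both of the others at its ends, while exposed animals and mutants were apart. Log2 fold changes were -1.17 ± 0.15 between FW1256-exposed WT and eat-2 mutants (edgeR, adjusted p = 8.74e-05) and -0.86 ± 0.21 between FW1256-exposed WT and WT (edgeR, adjusted p = 0.00816). In the mutants against WT it was 0.31 ± 0.16 (edgeR, adjusted p = 0.14), with 0.47 and a call without WT replicate 1 (edgeR, adjusted p = 0.0182) and 0.18 without WT replicate 2.

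Chaperones of the mitochondrion were represented by the chaperonin hsp-60 and by hsp-75, the counterpart of the mammalian mitochondrial HSP90 called TRAP1. The gene hsp-60 (chromosome III, 1619742 to 1625803, plus strand) had 722, 699, 667 and 597 CPM in FW1256-exposed WT, 320, 432, 316 and 391 CPM in eat-2 mutants and 373, 532, 525 and 464 CPM in unexposed WT. Exposed libraries lay above all others, whereas mutants and unexposed WT overlapped. Log2 fold changes were 0.49 ± 0.10 after exposure against WT (edgeR, adjusted p = 0.00343) and 0.86 ± 0.10 against the mutants (edgeR, adjusted p = 5.36e-05).

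In eat-2 mutants against WT hsp-60 was at -0.38 ± 0.13 (edgeR, adjusted p = 0.0435), a call that was lost without any of 6 of the 8 libraries (edgeR, adjusted p 0.0568 to 0.132). The gene hsp-75 (chromosome III, 7223233 to 7226707, minus strand) had 345, 334, 346 and 334 CPM in FW1256-exposed WT, 247, 273, 264 and 265 CPM in eat-2 mutants and 312, 336, 344 and 337 CPM in unexposed WT. It separated the mutants from the rest and not exposed from unexposed WT. Its log2 fold change was -0.34 ± 0.05 in the mutants (edgeR, adjusted p = 0.000631) and 0.02 ± 0.04 after exposure (edgeR, adjusted p = 0.678).

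The cytosolic HSP90 gene hsp-90 was called in none of the 3 pairwise edgeR tests, with 7011, 7024, 6783 and 6758 CPM in FW1256-exposed WT, 6116, 6612, 6354 and 6469 CPM in eat-2 mutants and 7010, 6875, 7619 and 6620 CPM in unexposed WT. Between FW1256-exposed WT and eat-2 mutants, where all exposed libraries were above all mutant libraries, the log2 fold change was 0.09 ± 0.04 (edgeR, adjusted p = 0.0506). DESeq2 called that difference and the one between eat-2 mutants and WT. The prefoldin subunit pfd-4 and the J-domain gene dnj-12 were likewise called in no comparison, with log2 fold changes between -0.04 and 0.04.

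Small heat shock proteins as a class bind unfolding proteins without ATP, and the files held hsp-12.2 and hsp-17. The gene hsp-12.2 (chromosome III, 8138077 to 8139631, plus strand) had 61.9, 73.8, 56.9 and 59.1 CPM in FW1256-exposed WT, 61.0, 79.9, 63.9 and 74.5 CPM in eat-2 mutants and 34.9, 48.5, 32.4 and 37.0 CPM in unexposed WT. It was above WT in every library of both groups, which overlapped each other. The rise on the log2 scale was 0.71 ± 0.13 after exposure (edgeR, adjusted p = 0.00184) and 0.87 ± 0.14 in the mutants (edgeR, adjusted p = 0.00109), both the largest rise of any of the 49 genes in that comparison.

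Between FW1256-exposed WT and eat-2 mutants hsp-12.2 was at -0.17 ± 0.11 (edgeR, adjusted p = 0.196). Its exons overlap those of C14B9.8 on the other strand. The gene hsp-17 was called nowhere, with 98.7 to 107 CPM in FW1256-exposed WT, 92.8 to 119 CPM in eat-2 mutants and 71.5 to 104 CPM in unexposed WT.

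**Figure D3:**
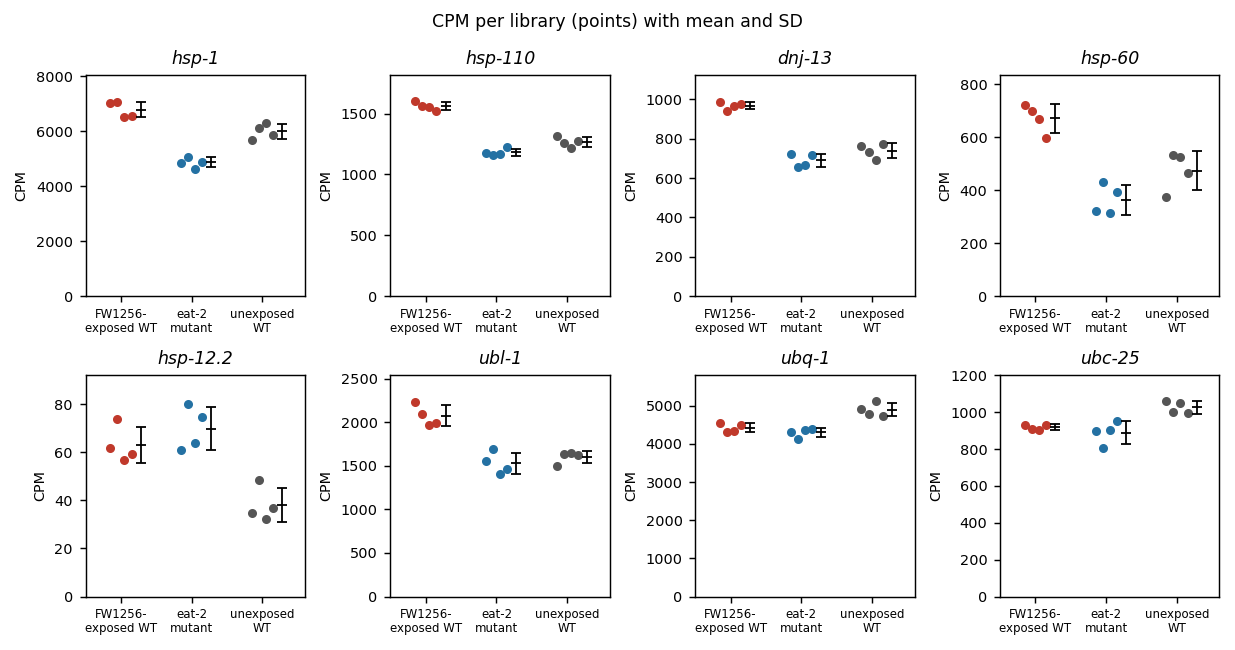
CPM (vertical axis, from 0) of 8 genes in each of the 12 libraries (points, 4 per group) with the mean and SD beside them; groups from left to right are FW1256-exposed WT, eat-2 mutants and unexposed WT. In hsp-12.2 both groups on the left lie above unexposed WT, in ubq-1 and ubc-25 both lie below it, and in hsp-1, hsp-110, dnj-13, hsp-60 and ubl-1 the exposed libraries are above the other groups.

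The proteasome subunits had log2 fold changes of similar size within each comparison. Their summed level was 9460 ± 312 CPM in FW1256-exposed WT, 7062 ± 255 CPM in eat-2 mutants and 8640 ± 541 CPM in unexposed WT (SD, n = 4 each). By library it was 9766, 9692, 9193 and 9189 CPM in FW1256-exposed WT, 7023, 7296, 6720 and 7209 CPM in eat-2 mutants and 8226, 9048, 9163 and 8123 CPM in unexposed WT. The groups did not overlap, although unexposed WT replicates 2 and 3 were well above replicates 1 and 4 and came close to the lowest exposed libraries. With library size alone, exposed and unexposed WT overlapped, at 8908 to 9324 CPM and 8373 to 9147 CPM.

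The log2 fold changes of the 12 subunits ran from -0.02 to 0.26 in FW1256-exposed WT against WT, from -0.39 to -0.16 in eat-2 mutants against WT and from 0.23 to 0.60 in FW1256-exposed WT against eat-2 mutants. Their SD across subunits was 0.09, 0.07 and 0.11 in these comparisons. For all 49 genes it was 0.25, 0.27 and 0.41. For the 5 CCT subunits it was 0.13, 0.07 and 0.11, so a narrow spread was not particular to the proteasome.

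The alpha subunits form the outer rings and the gate of the 20S core. The gene pas-2 (chromosome V, 10770368 to 10771351, plus strand) had 920, 909, 843 and 815 CPM in FW1256-exposed WT, 555, 628, 522 and 568 CPM in eat-2 mutants and 634, 792, 785 and 675 CPM in unexposed WT. Exposed libraries were above and mutant libraries below all unexposed WT libraries. Log2 fold changes were 0.26 ± 0.07 after exposure (edgeR, adjusted p = 0.0134), -0.34 ± 0.08 in the mutants (edgeR, adjusted p = 0.0087) and 0.60 ± 0.06 between exposed animals and mutants (edgeR, adjusted p = 1.86e-05).

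The gene pas-4 (chromosome I, 8727218 to 8728487, minus strand) had 700, 698, 663 and 662 CPM in FW1256-exposed WT, 483, 534, 454 and 479 CPM in eat-2 mutants and 542, 650, 649 and 552 CPM in unexposed WT. The order was that of pas-2, with the lowest exposed libraries close to the highest unexposed ones. Its rise after exposure (log2 fold change 0.18 ± 0.06) lost its call without any of 6 of the 8 libraries (edgeR, adjusted p 0.0515 to 0.0883).

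The alpha subunits pas-3 and pas-7 were not called after exposure and were lower in the mutants. The gene pas-7 (chromosome II, 10098782 to 10099854, minus strand) had 729, 749, 683 and 647 CPM in FW1256-exposed WT, 555, 580, 516 and 556 CPM in eat-2 mutants and 668, 786, 728 and 644 CPM in unexposed WT. Exposed and unexposed WT overlapped and the mutants lay below both. Its log2 fold change was -0.02 ± 0.07 after exposure and -0.36 ± 0.07 in the mutants (edgeR, adjusted p = 0.00262). The fall of pas-3 in the mutants (log2 fold change -0.24 ± 0.07) lost its call without any of 5 of the 8 libraries (edgeR, adjusted p 0.0573 to 0.0775).

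The ATPases rpt-1 and rpt-3 belong to the ring that unfolds substrates and feeds them into the core. The gene rpt-1 (chromosome V, 11980534 to 11982397, minus strand) had 917, 915, 897 and 897 CPM in FW1256-exposed WT, 580, 637, 624 and 641 CPM in eat-2 mutants and 758, 822, 888 and 772 CPM in unexposed WT. The groups did not overlap, but WT replicate 3 came close to the exposed libraries. In the mutants the log2 fold change was -0.38 ± 0.06 (edgeR, adjusted p = 0.000951).

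The gene rpt-3 (chromosome III, 6489793 to 6491282, plus strand) had 693, 688, 654 and 662 CPM in FW1256-exposed WT, 488, 484, 461 and 517 CPM in eat-2 mutants and 589, 608, 657 and 587 CPM in unexposed WT. Mutants were apart from both WT groups, and exposed and unexposed WT met at 654 and 657 CPM. Both ATPases were called higher after exposure, rpt-1 at 0.15 ± 0.05 and rpt-3 at 0.13 ± 0.04 on the log2 scale. The call was lost for rpt-1 without FW1256 replicate 2 (edgeR, adjusted p = 0.0544) and for rpt-3 without WT replicate 1, FW1256 replicate 1 or FW1256 replicate 2 (edgeR, adjusted p 0.0514 to 0.0582).

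The non-ATPase subunits of the 19S particle include the scaffold rpn-2, the ubiquitin receptor rpn-10 and the lid subunits rpn-3, rpn-5, rpn-9 and rpn-12. After exposure rpn-2, rpn-3 and rpn-12 were higher and rpn-5, rpn-9 and rpn-10 were not called. In the mutants 5 were lower and rpn-10 was not called. Of protein-coding genes at 100 CPM or more, 36.5% were higher after exposure and 45.0% lower in the mutants. The lid gene rpn-12 (chromosome II, 11653124 to 11654192, plus strand) had 520, 510, 490 and 473 CPM in FW1256-exposed WT, 364, 368, 337 and 374 CPM in eat-2 mutants and 397, 440, 428 and 394 CPM in unexposed WT. The groups were apart, and the log2 fold change was 0.25 ± 0.04 after exposure (edgeR, adjusted p = 0.00109) and -0.20 ± 0.05 in the mutants (edgeR, adjusted p = 0.0111).

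The scaffold gene rpn-2 (chromosome III, 6199184 to 6202594, plus strand) had 1015, 1017, 974 and 956 CPM in FW1256-exposed WT, 708, 748, 727 and 732 CPM in eat-2 mutants and 846, 883, 929 and 826 CPM in unexposed WT. It too kept the groups apart, with a log2 fold change of 0.17 ± 0.04 after exposure (edgeR, adjusted p = 0.00513). The lid gene rpn-9 (chromosome II, 11237447 to 11238919, minus strand) had 794, 786, 755 and 759 CPM in FW1256-exposed WT, 582, 576, 543 and 573 CPM in eat-2 mutants and 704, 774, 802 and 701 CPM in unexposed WT. Here the WT groups overlapped, and the fall in the mutants was the largest of the 12 subunits, at -0.39 ± 0.05 (edgeR, adjusted p = 0.000608).

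The receptor gene rpn-10 (chromosome I, 10730712 to 10732424, minus strand) had 603, 594, 558 and 548 CPM in FW1256-exposed WT, 483, 504, 439 and 491 CPM in eat-2 mutants and 499, 585, 567 and 490 CPM in unexposed WT. Unexposed WT overlapped both of the others. It was the only subunit called in neither comparison with WT, at 0.09 ± 0.06 after exposure and -0.16 ± 0.07 in the mutants, and it was 0.25 ± 0.05 between exposed animals and mutants (edgeR, adjusted p = 0.00142). Without WT replicate 4 its fall in the mutants passed the threshold (edgeR, adjusted p = 0.0467).

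**Figure D4:**
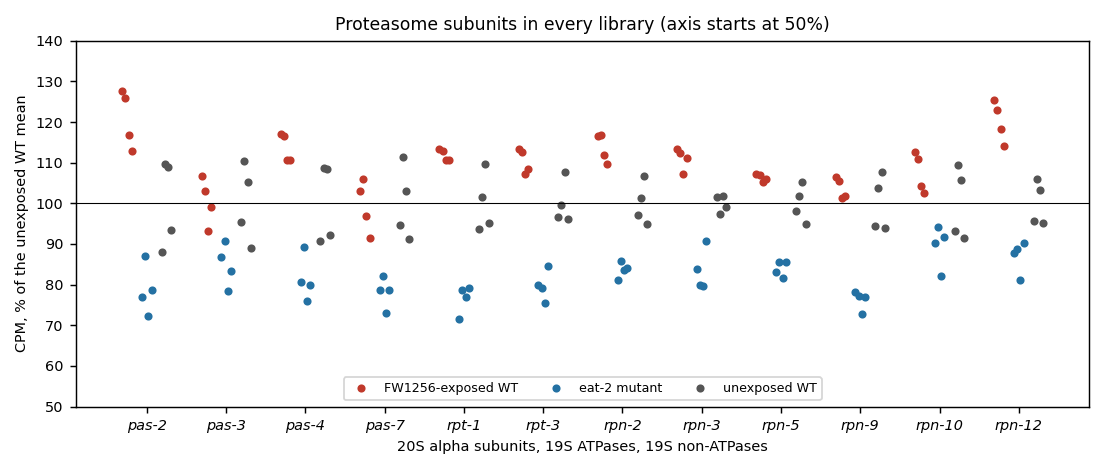
CPM of the 12 proteasome subunits in each library as a percent of that gene's unexposed WT mean (vertical axis, starting at 50%), with 4 points for FW1256-exposed WT (red), eat-2 mutants (blue) and unexposed WT (grey) at each gene. In all 12 genes the red points lie above the blue ones, and in 10 of the 12 the blue points lie below all grey points.

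The ubiquitin genes were the most mixed subgroup. The E1 enzyme uba-1 activates ubiquitin at the head of the cascade. It had 1638, 1687, 1641 and 1647 CPM in FW1256-exposed WT, 1255, 1251, 1303 and 1275 CPM in eat-2 mutants and 1617, 1563, 1630 and 1543 CPM in unexposed WT. The mutants were below both WT groups, and the exposed libraries began just above the highest unexposed one. For uba-1 the log2 fold change was -0.32 ± 0.04 in the mutants (edgeR, adjusted p = 0.000371) and 0.05 ± 0.03 after exposure (edgeR, adjusted p = 0.247).

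The gene uba-5 (chromosome I, 3873444 to 3875997, plus strand) codes for the E1 of the ubiquitin-like protein UFM1. It had 353, 343, 334 and 350 CPM in FW1256-exposed WT, 230, 228, 231 and 238 CPM in eat-2 mutants and 289, 277, 294 and 293 CPM in unexposed WT. The 3 groups were widely separated with little spread within each. For uba-5 the log2 fold change was 0.25 ± 0.04 after exposure (edgeR, adjusted p = 0.000433), -0.31 ± 0.04 in the mutants (edgeR, adjusted p = 0.000351) and 0.56 ± 0.03 between exposed animals and mutants (edgeR, adjusted p = 4.2e-07). Its exons overlap those of T03F1.12 on the other strand.

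The E2 enzymes carry activated ubiquitin or a relative of it to the ligases. The gene ubc-9, the E2 of the SUMO pathway, had 1297, 1270, 1245 and 1312 CPM in FW1256-exposed WT, 925, 888, 915 and 960 CPM in eat-2 mutants and 1068, 1126, 1134 and 1089 CPM in unexposed WT. The groups were apart, with a log2 fold change of 0.20 ± 0.03 after exposure (edgeR, adjusted p = 0.000861) and -0.26 ± 0.04 in the mutants (edgeR, adjusted p = 0.00108). The transcripts of ubc-9 overlap F29B9.5 on the same strand. The CDC34-type gene ubc-3 was higher after exposure, at 0.13 ± 0.04 on the log2 scale, a call that ended with library size alone.

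The genes ubc-17 and ubc-19 ran against the rest. The level of ubc-19 (chromosome V, 18686321 to 18689762, minus strand) was 22.0, 21.2, 25.2 and 24.6 CPM in FW1256-exposed WT, 44.2, 39.9, 43.6 and 34.3 CPM in eat-2 mutants and 29.7, 31.0, 23.2 and 31.4 CPM in unexposed WT. For ubc-17 (chromosome X, 7050590 to 7055699, plus strand) it was 1.76, 3.80, 1.95 and 2.26 CPM in FW1256-exposed WT, 7.67, 5.46, 6.76 and 5.86 CPM in eat-2 mutants and 4.76, 2.59, 4.70 and 3.80 CPM in unexposed WT. For both, mutants were above all other libraries and exposed animals overlapped unexposed WT.

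Between FW1256-exposed WT and eat-2 mutants the log2 fold change was -0.82 ± 0.10 for ubc-19 (edgeR, adjusted p = 6.27e-05) and -1.42 ± 0.26 for ubc-17 (edgeR, adjusted p = 0.000847). In the mutants against WT these were 0.49 ± 0.12 (edgeR, adjusted p = 0.00932) and 0.70 ± 0.22 (edgeR, adjusted p = 0.0283). The rise of ubc-17 lost its call without mutant replicate 1, mutant replicate 3 or WT replicate 4 (edgeR, adjusted p 0.0563 to 0.0740), and the fall of ubc-19 after exposure (log2 fold change -0.32 ± 0.12) did so without 7 of the 8 libraries in turn (edgeR, adjusted p 0.0511 to 0.110).

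The level of ubc-6 (chromosome II, 7479187 to 7480713, plus strand) was 75.7, 94.7, 72.1 and 65.9 CPM in FW1256-exposed WT, 58.8, 42.6, 37.7 and 57.0 CPM in eat-2 mutants and 75.1, 76.5, 75.3 and 65.1 CPM in unexposed WT. The mutants were below both WT groups, which overlapped. Its fall in the mutants, -0.57 ± 0.14 on the log2 scale (edgeR, adjusted p = 0.00929), was the largest among the ubiquitin genes, in a gene whose pooled means differed most between the authors' tables.

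The gene ubc-25 (chromosome I, 10562970 to 10564903, plus strand) had 929, 908, 903 and 933 CPM in FW1256-exposed WT, 899, 807, 901 and 952 CPM in eat-2 mutants and 1061, 999, 1051 and 994 CPM in unexposed WT. All unexposed WT libraries were above the other 8. Its values on the log2 scale were -0.17 ± 0.03 after exposure (edgeR, adjusted p = 0.00229), -0.21 ± 0.05 in the mutants (edgeR, adjusted p = 0.0131) and 0.03 ± 0.05 between exposed animals and mutants (edgeR, adjusted p = 0.576).

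Ubiquitin itself is made from fusion genes. The polyubiquitin gene ubq-1 (chromosome III) had 4544, 4308, 4345 and 4505 CPM in FW1256-exposed WT, 4302, 4126, 4371 and 4401 CPM in eat-2 mutants and 4923, 4794, 5137 and 4741 CPM in unexposed WT. As with ubc-25, all unexposed WT libraries were above the rest. The log2 fold change was -0.16 ± 0.04 after exposure (edgeR, adjusted p = 0.00545), -0.19 ± 0.05 in the mutants (edgeR, adjusted p = 0.00894) and 0.03 ± 0.04 between exposed animals and mutants (edgeR, adjusted p = 0.55).

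The gene ubl-1 (chromosome III), which joins a ubiquitin-like protein to a protein of the small ribosomal subunit, had 2232, 2100, 1968 and 1995 CPM in FW1256-exposed WT, 1558, 1689, 1408 and 1469 CPM in eat-2 mutants and 1504, 1642, 1646 and 1623 CPM in unexposed WT. Exposed libraries were above all others, and mutants overlapped unexposed WT. The log2 fold change was 0.36 ± 0.05 after exposure (edgeR, adjusted p = 0.000313) and -0.07 ± 0.06 in the mutants (edgeR, adjusted p = 0.405). After exposure the polyubiquitin gene thus fell while the ribosomal fusion gene rose.

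Of the deubiquitinases, usp-46, which acts on the glutamate receptor GLR-1 in worm neurons, had 282, 273, 284 and 283 CPM in FW1256-exposed WT, 195, 187, 204 and 202 CPM in eat-2 mutants and 235, 230, 245 and 245 CPM in unexposed WT. The groups were apart, with a log2 fold change of 0.22 ± 0.04 after exposure (edgeR, adjusted p = 0.000755) and -0.28 ± 0.04 in the mutants (edgeR, adjusted p = 0.00108). Its exons overlap those of sqv-3. The gene usp-50 was higher after exposure, at 0.20 ± 0.05, and at -0.07 ± 0.05 in the mutants.

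Compared as subgroups, chaperones summed to 30733 ± 586 CPM in FW1256-exposed WT, 25335 ± 490 CPM in eat-2 mutants and 28403 ± 808 CPM in unexposed WT (SD, n = 4 each). Ubiquitin genes summed to 11796 ± 235 CPM in FW1256-exposed WT, 10071 ± 157 CPM in eat-2 mutants and 11497 ± 255 CPM in unexposed WT. For chaperones the groups did not overlap, whereas for ubiquitin genes exposed and unexposed WT did, at 11529 to 12091 CPM and 11269 to 11860 CPM. With library size alone, chaperones overlapped too, at 29394 to 29915 CPM in FW1256-exposed WT and 27879 to 29552 CPM in unexposed WT, and the ubiquitin sum turned round, with a mean of 11370 CPM in FW1256-exposed WT and 11628 CPM in unexposed WT. The largest contributors were hsp-90 and hsp-1 among the chaperones and ubq-1 among the ubiquitin genes.

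**Figure D5:**
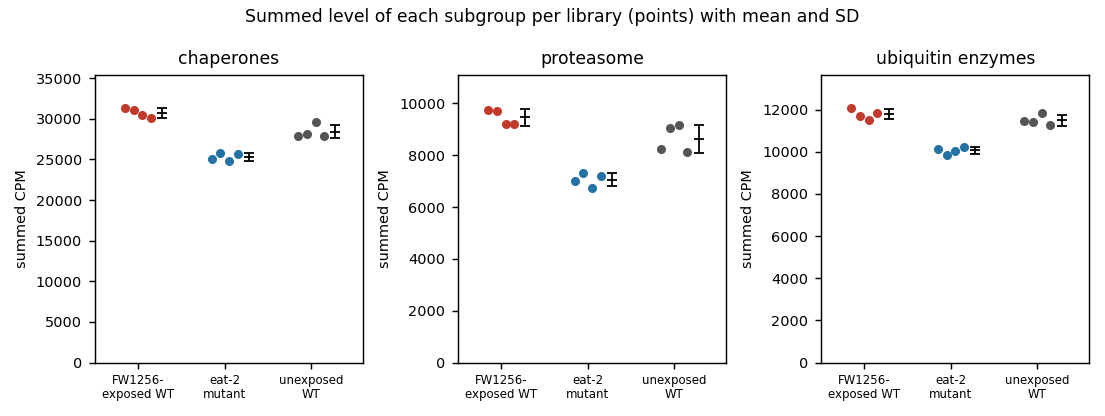
Summed CPM (vertical axis, from 0) of chaperones, proteasome subunits and ubiquitin enzymes in each of the 12 libraries (points, 4 per group) with the mean and SD beside them; groups from left to right are FW1256-exposed WT, eat-2 mutants and unexposed WT. In each panel eat-2 mutants are lowest, with means of 25335, 7062 and 10071 CPM.

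Other genes of the same pathways were taken from lists, and their counts are to be read against the shares of protein-coding genes called. After exposure these were 27.2% higher and 23.4% lower, and 36.5% and 18.2% among genes at 100 CPM or more. In the mutants they were 21.4% higher and 26.4% lower, and 13.0% and 45.0% among genes at 100 CPM or more. Of 12 other deubiquitinases and partners of the CDC-48 segregase, 5 were higher and 3 lower in FW1256-exposed WT against WT, and 1 was higher and 9 lower in eat-2 mutants against WT. In this list cdc-48.2, which codes for the ATPase that extracts ubiquitinated proteins, averaged 1160 CPM in FW1256-exposed WT, 749.8 CPM in eat-2 mutants and 979.5 CPM in unexposed WT. Its log2 fold change was 0.23 ± 0.04 after exposure (edgeR, adjusted p = 0.0018) and -0.39 ± 0.05 in the mutants (edgeR, adjusted p = 0.00057).

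Of 15 genes that work with the conjugating enzymes, mostly cullins, ligases and SUMO proteases, 3 were higher and 4 lower after exposure, and 0 were higher and 10 lower in the mutants. The counts after exposure are near the shares of all protein-coding genes tested. The cullin genes cul-2 and cul-3 and the SUMO protease gene ulp-2 were the 3 that rose, at 0.27 ± 0.04, 0.39 ± 0.09 and 0.50 ± 0.09. The ligase gene hecd-1 fell after exposure, at -0.41 ± 0.08. Of 13 folding isomerases 2 were higher and 6 lower after exposure, and 3 were higher and 4 lower in the mutants, and among them fkb-3, a peptidyl-prolyl isomerase, was at -0.81 ± 0.08 after exposure. Of 5 other folding factors 0 were higher and 2 lower in each comparison with WT, among them hip-1, an HSP70 partner, at -0.50 ± 0.07 in the mutants. Of 3 Skp1-related genes 1 was higher and 2 lower after exposure, and 1 was higher in the mutants.

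Among 9 regulators of protein homeostasis, atfs-1, the transcription factor of the mitochondrial unfolded protein response, was higher after exposure (log2 fold change 0.21 ± 0.04) and lower in the mutants (-0.29 ± 0.04). The gene hsb-1, whose product binds and restrains the heat shock factor HSF-1, was higher after exposure at 0.22 ± 0.04 and was at -0.03 ± 0.04 in the mutants. The transcription factor gene pqm-1 averaged 39.2 CPM in FW1256-exposed WT, 112 CPM in eat-2 mutants and 76.8 CPM in unexposed WT. In all, 2 of the 9 were higher and 2 lower after exposure, and 4 were higher and 2 lower in the mutants. For these 9 too, the counts after exposure are near the shares of all protein-coding genes tested.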

How the data were processed

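RNA of 12 whole-body libraries was sequenced by the authors as paired reads on an Illumina HiSeq4000. Per the study's methods and the submitters' processing notes, the authors quantified transcripts of WBcel235 with kallisto (0.46.0), brought them to gene level with tximport (length-scaled), and tested genes with DESeq2 (1.24.0). The deposited per-library files hold these estimated counts for 5272 genes, which were rounded to whole numbers here. Of these genes 175 were at 0 in all libraries and 1 had no annotation. The authors' 2 result tables also hold a mean of normalized counts per gene (a signal pooled over libraries), which was used to check completeness. Their fold changes and p-values were not used.

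Counts were scaled by TMM, filtered with filterByExpr and tested per pair of groups with edgeR's quasi-likelihood test (4.0.16, R 4.3.3), with Benjamini-Hochberg adjustment over all genes tested. The test was checked on simulated counts. CPM used TMM over all 12 libraries, and totals run over the genes of the files. SE is the log2 fold change divided by the square root of the F statistic. Gene positions came from Ensembl release 115. DESeq2 (1.42.0), other scalings and filters, 1 fit of 3 groups, a replicate block and leaving out each library were alternatives.

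Genes were named in order of role. Values by library are given for up to 4 called members of each subgroup and comparison with the largest log2 fold change, at least 20 mean counts and no overlap between groups, and for fixed members on which the text turns. Other members were named after their values were seen. Members and lists were chosen with earlier results of these data known. Libraries of a group differed by more than sampling noise, so each counted as 1 sample. Of the 49 genes, 14 share exon bases with another protein-coding gene or a pseudogene, and nothing says that reads were counted by strand.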

Additional observations from a re-analysis of the deposited data

Results flagged for a closer look

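Some single libraries stood apart from the other 3 of their group in a test for outlying values (Dixon's, at the 95% level), in 9 of 159 groups of values checked. Chance alone gives about 1 in 20. The level of dnj-16 was 56.4 CPM in FW1256 replicate 3, against 34.1 to 35.8 CPM in the other exposed libraries. FW1256 replicate 2 had 1398 CPM of dnj-5, with 1449 to 1455 CPM in the rest of its group, and 273 CPM of usp-46, with 282 to 284 CPM in the rest. In eat-2 mutants, replicate 1 was low for hsp-4 at 382 CPM (others 444 to 454 CPM) and for dnj-1 at 182 CPM (others 201 to 204 CPM). In unexposed WT, replicate 3 had 591 CPM of dnj-29 (others 561 to 565 CPM) and a summed chaperone level of 29603 CPM (others 27925 to 28153 CPM). WT replicate 4 had 65.1 CPM of ubc-6 (others 75.1 to 76.5 CPM), and WT replicate 1 had 1504 CPM of ubl-1 (others 1623 to 1646 CPM).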

How the results depend on the processing

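The counts called over all 49 genes stayed within 1.5 times their values under DESeq2, other size factors, library size alone, both other filters on low counts, 1 fit over the 3 groups, a threshold of 0.01 and protein-coding genes only, the last chosen after seeing the data. For FW1256-exposed WT against WT, 19 genes were higher and 5 lower with library size alone, with 3 proteasome subunits higher in place of 7 and 2 chaperones lower in place of 1. Without FW1256-exposed WT replicate 2, 4 proteasome subunits were higher after exposure in place of 7. Leaving out each library in turn gave 21 to 28 higher and 3 to 4 lower in FW1256-exposed WT against WT, 2 to 4 higher and 28 to 33 lower in eat-2 mutants against WT, and 38 to 39 higher and 4 lower in FW1256-exposed WT against eat-2 mutants. With library size alone the summed levels were 29622 CPM for chaperones, 9117 CPM for the proteasome, 11370 CPM for ubiquitin genes and 50110 CPM for all 49 genes in FW1256-exposed WT, and 25986 CPM for chaperones, 10334 CPM for ubiquitin genes and 43562 CPM for all 49 genes in eat-2 mutants. Beside these stand 28724 CPM for chaperones, 8732 CPM for the proteasome, 11628 CPM for ubiquitin genes and 49084 CPM for all 49 genes in unexposed WT, so that for ubiquitin genes exposed WT was then below unexposed WT. Genes not called whose log2 fold change was under 0.1 in size changed sign in places and carry no direction.

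Libraries with the same replicate number did not deviate together in every pair, so the numbers were not taken to pair them. For replicates 1 to 4 the correlations were -0.04, 0.26, 0.00 and 0.13 between FW1256-exposed WT and WT, 0.15, 0.37, -0.02 and 0.37 between eat-2 mutants and WT, and -0.01, 0.18, -0.02 and 0.17 between FW1256-exposed WT and eat-2 mutants. Replicates 2 and 4 correlated best with their own number in all 3 comparisons, replicate 1 only between the mutants and WT, and replicate 3 in none. With a replicate block, 26 genes were higher and 3 lower in FW1256-exposed WT against WT, 4 higher and 30 lower in eat-2 mutants against WT, and 38 higher and 4 lower in FW1256-exposed WT against eat-2 mutants. The block ended the calls of dnj-5 and ubc-19 after exposure and added that of dnj-16 in the mutants (log2 fold change 0.34, edgeR, adjusted p = 0.0488).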
